A study of Mus musculus with 24 samples.

Results

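The genes described here are 8 enzymes and transporters that handle creatine and adenine nucleotides in muscle: the AMP-removing enzymes Nt5c1a, Ampd1 and Ampd3, the adenylate kinase Ak1, the creatine kinases Ckm and Ckmt2, the creatine-making enzyme Gamt and the creatine transporter Slc6a8. They were chosen by name with measured changes of these data in view, and the probe set read for each was to be chosen by its mean level over the 24 arrays among those annotated to that symbol alone. Each of the 8 had 1 such probe set, so the mean decided nothing. They are 8 of 19938 genes named on the array and of 15999 genes tested. The results known when the list was drawn up included the fall of Nt5c1a in knockout quadriceps. That change is therefore given below as a description with no test, as are the other Nt5c1a comparisons that use quadriceps arrays, and counts of calls that involve quadriceps are given over the other 7 genes.

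Total RNA of quadriceps and soleus was hybridised to Affymetrix arrays, 6 per group. The groups were quadriceps of nebulin conditional knockout (cKO) males, quadriceps of control males, soleus of cKO males and soleus of control males, all aged 40 to 42 days. All mice, controls included, carried 2 conditional nebulin (Neb) alleles on a mixed background of C57BL/6J and, as the labels write it, 1219S6/SvEvTac. The cKO mice were also hemizygous for MCK-Cre, a recombinase under the promoter of muscle creatine kinase, and the controls lacked this transgene, so loss of nebulin and presence of Cre cannot be told apart. The promoter belongs to Ckm, one of the genes described. The submitters describe the cKO quadriceps as markedly smaller and the cKO soleus as not significantly smaller.

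Working muscle keeps its ATP level through linked reactions. Creatine kinases pass phosphate between phosphocreatine and ADP, in the cytosol through Ckm and in mitochondria through Ckmt2, and adenylate kinase rebuilds ATP from ADP while forming AMP. AMP is then removed by deamination to IMP through AMP deaminases, whose muscle isoform is Ampd1 and whose isoform first known from red blood cells is Ampd3, or by dephosphorylation to adenosine through the cytosolic nucleotidase Nt5c1a. Creatine reaches muscle largely from blood through Slc6a8, and its synthesis ends with Gamt. Fast fibres are known for high creatine kinase, adenylate kinase and AMP deaminase activity, and slow fibres for more mitochondria.

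Levels are log2 intensities of the deposited values, and changes are differences of group means on that scale, fitted for all 15999 genes with limma and called at a Benjamini-Hochberg adjusted p under 0.05. Neb itself was lower in cKO in both muscles without overlap: it averaged 10.84 ± 0.23 in cKO quadriceps against 12.29 ± 0.17 in control quadriceps, and 11.24 ± 0.20 in cKO soleus against 12.38 ± 0.21 in control soleus (SD, n = 6 each). Array medians lay between 4.74 and 4.94. Quadriceps control 4 stood farthest from its group over all genes (root mean square deviation 0.32 on the log2 scale, against 0.14 to 0.26 on the other 23 arrays). All 8 genes lay above the dim limit, each array's 30th percentile (3.51 to 3.72), on all 24 arrays. The summed intensity of 8 skeletal muscle markers was 34331 to 37295 in cKO quadriceps, 31090 to 37114 in control quadriceps, 38330 to 39804 in cKO soleus and 35997 to 39946 in control soleus.

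Promoter sequence is shown for the genes with the largest change in each muscle (Nt5c1a and Gamt), for Ampd3, which has 3 annotated starts, and for Ckm, whose promoter also drives Cre. RefSeq on GRCm38.p6, the assembly that mm10 names, gave windows from 250 bases before to 50 after the start for 6 of the 8 genes, 11 windows in all. Capitals mark E-boxes (CANNTG, the letters that myogenic factors of the MyoD family bind) and a loose MEF2-like pattern (CTA and TAG with 4 bases of any kind between them), both read on both strands.
Nt5c1a, chr4:123201235-123201534, plus strand: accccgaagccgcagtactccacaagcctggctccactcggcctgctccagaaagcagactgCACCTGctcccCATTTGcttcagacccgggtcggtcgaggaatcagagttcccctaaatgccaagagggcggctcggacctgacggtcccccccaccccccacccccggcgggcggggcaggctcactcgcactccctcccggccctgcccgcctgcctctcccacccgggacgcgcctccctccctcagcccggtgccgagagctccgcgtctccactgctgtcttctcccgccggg
Ampd3, chr7:110772354-110772653, plus strand: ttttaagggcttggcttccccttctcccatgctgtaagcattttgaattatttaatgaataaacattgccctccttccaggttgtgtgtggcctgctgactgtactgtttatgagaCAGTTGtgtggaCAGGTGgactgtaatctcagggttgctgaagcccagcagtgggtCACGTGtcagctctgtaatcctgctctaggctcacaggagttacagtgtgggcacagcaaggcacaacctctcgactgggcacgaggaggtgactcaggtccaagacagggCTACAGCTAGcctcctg
Gamt, chr10:80260963-80261262, minus strand: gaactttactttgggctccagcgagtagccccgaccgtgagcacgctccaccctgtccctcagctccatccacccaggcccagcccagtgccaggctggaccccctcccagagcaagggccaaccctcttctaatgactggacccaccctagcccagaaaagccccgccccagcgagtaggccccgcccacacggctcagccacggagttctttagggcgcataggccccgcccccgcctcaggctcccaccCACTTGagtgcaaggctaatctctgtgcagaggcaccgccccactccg
Ckm, chr7:19410844-19411143, plus strand: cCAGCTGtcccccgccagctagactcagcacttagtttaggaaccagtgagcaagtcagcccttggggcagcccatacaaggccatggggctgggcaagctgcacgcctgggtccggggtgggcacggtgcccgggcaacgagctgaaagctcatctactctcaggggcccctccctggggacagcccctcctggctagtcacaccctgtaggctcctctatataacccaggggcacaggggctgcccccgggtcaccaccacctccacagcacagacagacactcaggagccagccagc
The Nt5c1a window held E-boxes from bases -188 and -177, the Gamt window had 1 at base 3 after the start, and the Ckm window had 1 at base -249. The Ampd3 window held E-boxes from bases -134, -122 and -78 and the MEF2-like pattern from base 34. It is shown because it alone of the 11 held that pattern, a choice made after the search. An E-box was found in 10 of the 11 windows, against 72.3% of the 32851 promoter windows in the table, and the MEF2-like pattern in 1 of 11, against 3.69%. The matches are letters only, and the part of the Ckm promoter carried by the transgene is not given in the sources used here.

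In quadriceps Ampd1, Ak1, Ckm and Ckmt2 fell in cKO and Ampd3 rose. Of the 7 genes other than Nt5c1a, 1 was called higher and 4 lower, where 22.3% of all genes tested were called higher and 17.7% lower (40.0% in all). The median change of the 7 was -0.20, against -0.01 over all genes tested. In 4 of the 7 genes the 6 cKO arrays did not overlap the 6 control arrays, 1 with cKO higher and 3 with cKO lower, where 16.2% of all genes did not overlap (10.1% higher and 6.06% lower). In soleus, whose arrays share none with the known change, 1 of the 8 genes was called higher and 3 lower, where 13.2% of all genes were called higher and 9.94% lower (23.1% in all), with a median of -0.13 against -0.02 over all genes. Without overlap in soleus were 1 of the 8 with cKO higher and 3 with cKO lower, against 7.82% and 4.96% of all genes (12.8% in all). Because these are whole muscles, fewer cells of a kind and less RNA per cell cannot be told apart for any gene below.

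**Figure D1:**
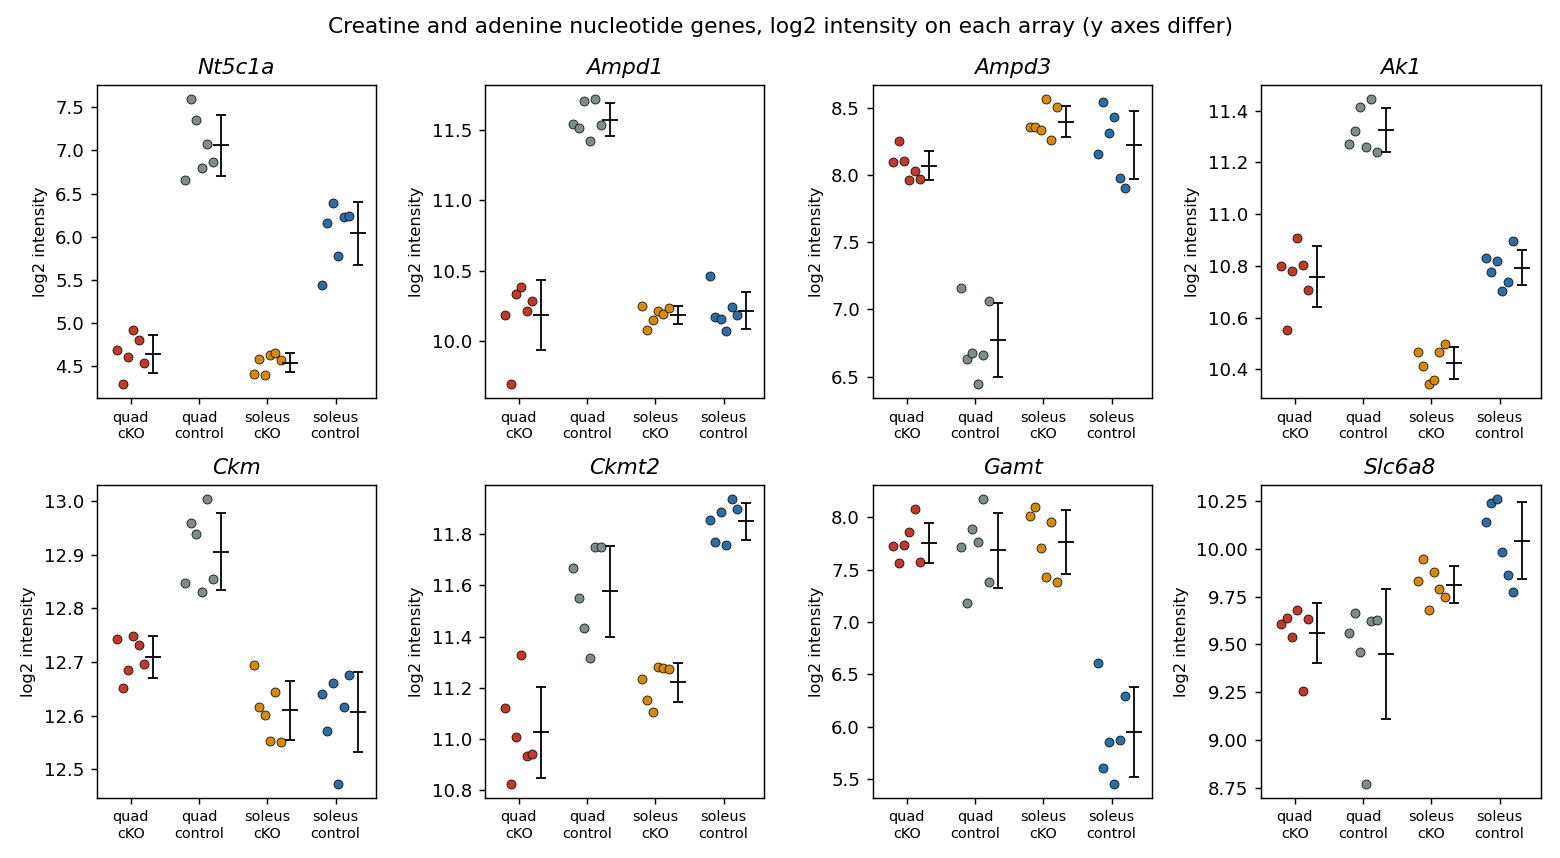
Log2 intensity (y axis, a separate scale for each gene) of the 8 genes on each of 24 arrays, by group (x axis); points are arrays and the black mark beside them is the mean with 1 SD (n = 6). Ampd1 separated quadriceps controls (11.42 to 11.72) from every other group, and Gamt separated soleus controls (5.46 to 6.61) from every other group.

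Nt5c1a (Entrez gene 230718, chromosome 4, 123201230 to 123225339) was lower in cKO in both muscles. In quadriceps it read 4.30 at the lowest, 4.65 at the median and 4.92 at the highest in cKO, against 6.66, 6.97 and 7.59 in controls. The highest cKO array lay below the lowest control array, and the fitted change was -2.41, which is 5.33-fold lower (95% interval -2.72 to -2.11). In soleus the lowest, median and highest arrays were 4.40, 4.58 and 4.66 in cKO and 5.44, 6.20 and 6.39 in controls. The soleus groups did not overlap either, and Nt5c1a fell by 1.497 on the log2 scale (2.82-fold, SE 0.15, limma adjusted p = 2.18e-08). In order of level, quadriceps control came first, then soleus control, then the cKO groups, which overlapped each other. Nt5c1a averaged 4.64 in cKO quadriceps and 4.54 in cKO soleus, below the array medians (4.74 to 4.94) though above the dim limit. Whether its differences are narrowed at this low end of the scale was not tested. Soleus minus quadriceps was -0.10 in cKO (95% interval -0.41 to 0.21) and -1.02 in controls (2.03-fold lower in soleus), both given with no test. The soleus change less the quadriceps change was 0.92, again a description.

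Ampd1 (Entrez gene 229665, chromosome 3, 103073897 to 103099720), the AMP deaminase of muscle fibres, was lower in cKO quadriceps. The lowest, median and highest arrays there were 9.69, 10.25 and 10.39 in cKO, against 11.42, 11.54 and 11.72 in controls. No array overlapped, and the fall of 1.39 on the log2 scale was 2.62-fold (SE 0.09, limma adjusted p = 5.43e-12). In soleus Ampd1 read 10.08, 10.20 and 10.25 in cKO and 10.07, 10.18 and 10.46 in controls. These soleus values overlapped throughout, with a difference of -0.03 (adjusted p = 0.860, 95% interval -0.22 to 0.16). The change differed between the muscles, with soleus minus quadriceps at 1.36 (SE 0.13, adjusted p = 8.68e-08). The cKO quadriceps, at 10.18 ± 0.25, overlapped cKO soleus (10.19 ± 0.06) and control soleus (10.22 ± 0.13), while control quadriceps stood at 11.57 ± 0.12 (SD, n = 6 each).

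Ampd3 (Entrez gene 11717, chromosome 7, 110767790 to 110812409) went the other way. Its lowest, median and highest arrays in quadriceps were 7.96, 8.06 and 8.26 in cKO, against 6.45, 6.67 and 7.16 in controls. The groups did not overlap, and Ampd3 rose by 1.30 on the log2 scale (2.46-fold, SE 0.11, limma adjusted p = 8.96e-10). In soleus it read 8.26, 8.36 and 8.56 in cKO and 7.90, 8.23 and 8.54 in controls. These overlapped, and the difference of 0.18 did not pass (adjusted p = 0.285, 95% interval -0.06 to 0.41). The difference between the changes, soleus minus quadriceps, was -1.12 (SE 0.16, adjusted p = 3.73e-05). Beside this, the other cells known to hold Ampd3 can be read from their markers. Of the 8 red blood cell markers on the list, Alas2 and Slc4a1 could be tested, and neither was called in quadriceps. Their summed intensity was 60.1 to 92.3 in cKO quadriceps and 68.0 to 105.5 in control quadriceps. Alas2 was called lower in cKO soleus (-0.49, limma adjusted p = 0.0259) and Slc4a1 was not called there. The sums were 51.2 to 74.9 in cKO soleus and 69.3 to 98.6 in control soleus. Of the 8 macrophage markers, 6 were called higher in cKO quadriceps and none lower, with sums of 1202 to 1414 in cKO quadriceps and 687.3 to 1172 in control quadriceps. In soleus 6 were called higher as well, with sums of 955.4 to 1398 in cKO soleus and 620.4 to 869.9 in control soleus. Their part in the Ampd3 values was not tested.

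**Figure D2:**
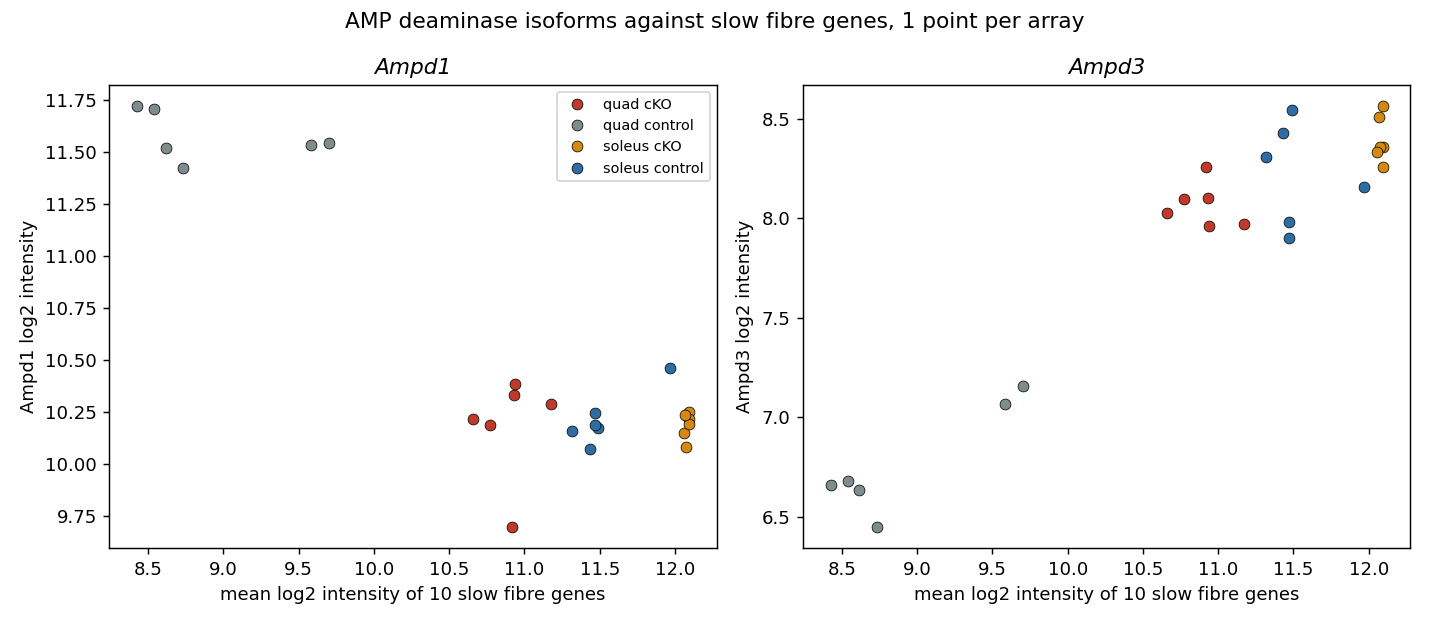
Log2 intensity of Ampd1 (left) and Ampd3 (right) on the y axes against the mean log2 intensity of 10 slow fibre genes on the x axes, 1 point per array, coloured by group. The cKO quadriceps arrays lay at 10.66 to 11.17 on the x axis, with no control quadriceps array above 9.70.

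The AMP deaminases were read beside genes of slow and fast fibres. All 10 slow fibre contractile genes on the list were called higher in cKO quadriceps (median change 2.07), led by the light chain Myl6b (2.54), slow troponin I Tnni1 (2.53) and slow troponin C Tnnc1 (2.35). Of 13 fast fibre genes 7 were called lower in cKO quadriceps, among them the kinase Mylk2 (-1.41), the myosin-binding protein Mybpc2 (-1.25) and fast troponin I Tnni2 (-0.52), and 1 was called higher, the type IIa myosin Myh2 (1.01). In soleus 4 of the 10 slow fibre genes were called higher and 1 lower (median change 0.37), and 9 of the 13 fast fibre genes were called lower, led by Pvalb (-2.96), Mybpc2 (-2.94) and Myh4 (-2.56). Among quadriceps controls, replicates 1 and 6 had the highest slow fibre means (9.70 and 9.58, the other 4 being between 8.43 and 8.73) and also the highest Ampd3 (7.16 and 7.07, the other 4 between 6.45 and 6.68). Their Ampd1, at 11.54 and 11.53, lay within the range of those 4. The part of fibre makeup in the Ampd1 and Ampd3 differences was not tested.

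Ak1 (Entrez gene 11636, chromosome 2, 32621758 to 32635058), the cytosolic adenylate kinase, was lower in cKO in both muscles. In quadriceps its lowest, median and highest arrays were 10.55, 10.79 and 10.91 in cKO and 11.24, 11.30 and 11.44 in controls. In soleus they were 10.34, 10.44 and 10.50 in cKO and 10.70, 10.80 and 10.89 in controls. Neither muscle showed an overlap: Ak1 fell by 0.57 on the log2 scale in quadriceps (1.48-fold, SE 0.06, limma adjusted p = 9.06e-08) and by 0.37 in soleus (1.29-fold, adjusted p = 8.93e-05). The difference between these changes, 0.20, did not pass (adjusted p = 0.158, 95% interval 0.01 to 0.39). Control quadriceps stood highest, cKO quadriceps overlapped control soleus, and cKO soleus stood below all 3.

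Ckm (Entrez gene 12715, chromosome 7, 19411094 to 19421583), the cytosolic creatine kinase, had the smallest change that passed in quadriceps. There the lowest, median and highest arrays were 12.65, 12.71 and 12.75 in cKO and 12.83, 12.90 and 13.00 in controls. The groups did not overlap, and Ckm fell by 0.20 on the log2 scale, 12.7% on the linear scale (SE 0.06, limma adjusted p = 0.00709). After quantile normalization of the deposited values the difference was -0.09 and not called (adjusted p = 0.176). In soleus Ckm read 12.55, 12.61 and 12.69 in cKO and 12.47, 12.63 and 12.68 in controls, a difference of 0.00 (adjusted p = 0.975, 95% interval -0.11 to 0.12). The difference between the changes was 0.20 (adjusted p = 0.0995). The highest value of any probe set on an array was 13.20 to 13.30, so Ckm lay near the top of the scale in all groups, and whether its differences are narrowed there was not tested.

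Ckmt2 (Entrez gene 76722, chromosome 13, 91853386 to 91876923), the mitochondrial creatine kinase of striated muscle, was lower in cKO in both muscles. Its lowest, median and highest arrays in quadriceps were 10.83, 10.97 and 11.33 in cKO and 11.32, 11.61 and 11.75 in controls, and the groups met at cKO replicate 4 and control replicate 4. In soleus the values were 11.11, 11.25 and 11.28 in cKO and 11.76, 11.87 and 11.94 in controls, without overlap. Ckmt2 fell by 0.55 on the log2 scale in quadriceps (1.47-fold, SE 0.08, limma adjusted p = 7.11e-06) and by 0.63 in soleus (1.55-fold, SE 0.08, adjusted p = 1.95e-06). The difference between the changes was -0.08 (adjusted p = 0.719, 95% interval -0.32 to 0.16).

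Gamt (Entrez gene 14431, chromosome 10, 80258151 to 80261025), guanidinoacetate methyltransferase, rose in soleus. Its lowest, median and highest soleus arrays were 7.38, 7.83 and 8.10 in cKO and 5.46, 5.86 and 6.61 in controls. Every cKO array lay above every control array, and the rise of 1.82 on the log2 scale was 3.52-fold (SE 0.17, limma adjusted p = 1.16e-08). In quadriceps the values were 7.56, 7.73 and 8.08 in cKO and 7.18, 7.74 and 8.17 in controls. The cKO quadriceps values lay within the control range, with a difference of 0.07 (adjusted p = 0.763, 95% interval -0.29 to 0.43). The changes differed between the muscles by 1.74 (SE 0.25, adjusted p = 3.42e-05). Control soleus, at 5.95 ± 0.43, thus stood below cKO soleus (7.76 ± 0.31), cKO quadriceps (7.75 ± 0.19) and control quadriceps (7.68 ± 0.36), which overlapped one another (SD, n = 6 each).

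Markers of cells other than fibres also differed in cKO. In soleus 5 of 6 endothelial markers were called lower, with sums of 1597 to 1904 in cKO and 2140 to 3393 in controls, and 4 of 6 smooth muscle markers were called lower, with sums of 2092 to 2380 in cKO and 2569 to 3479 in controls. No marker of either list was called in quadriceps. Of 6 fibroblast markers 4 were called higher in each muscle, with sums that overlapped (8718 to 10750.3 in cKO quadriceps, 6086 to 9637 in control quadriceps, 6554 to 9047 in cKO soleus and 6997 to 8285 in control soleus). Of 5 tested adipocyte markers 3 were called higher in quadriceps, with sums of 1424 to 3718 in cKO and 770.8 to 2190 in controls, and none in soleus. Their part in the Gamt and other values was not tested.

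Slc6a8 (Entrez gene 102857, chromosome X, 73673133 to 73682502), which carries creatine into the fibre, passed in neither cKO comparison. In quadriceps its lowest, median and highest arrays were 9.26, 9.62 and 9.68 in cKO and 8.77, 9.59 and 9.67 in controls. The difference was 0.11 (limma adjusted p = 0.485, 95% interval -0.14 to 0.35), and without quadriceps control 4, the lowest array, it was -0.028 (adjusted p = 0.827). In soleus the values were 9.68, 9.81 and 9.95 in cKO and 9.77, 10.06 and 10.26 in controls, a difference of -0.23 (adjusted p = 0.178, 95% interval -0.47 to 0.02). This soleus difference was called with array quality weights (adjusted p = 0.0305) and without quadriceps control 4 (adjusted p = 0.0461), an array that enters it only through the shared estimate of spread. The difference between the changes, soleus minus quadriceps, was -0.34 (adjusted p = 0.199, 95% interval -0.68 to 0.01). Slc6a8 neighbours in the order of the groups overlapped throughout.

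**Figure D3:**
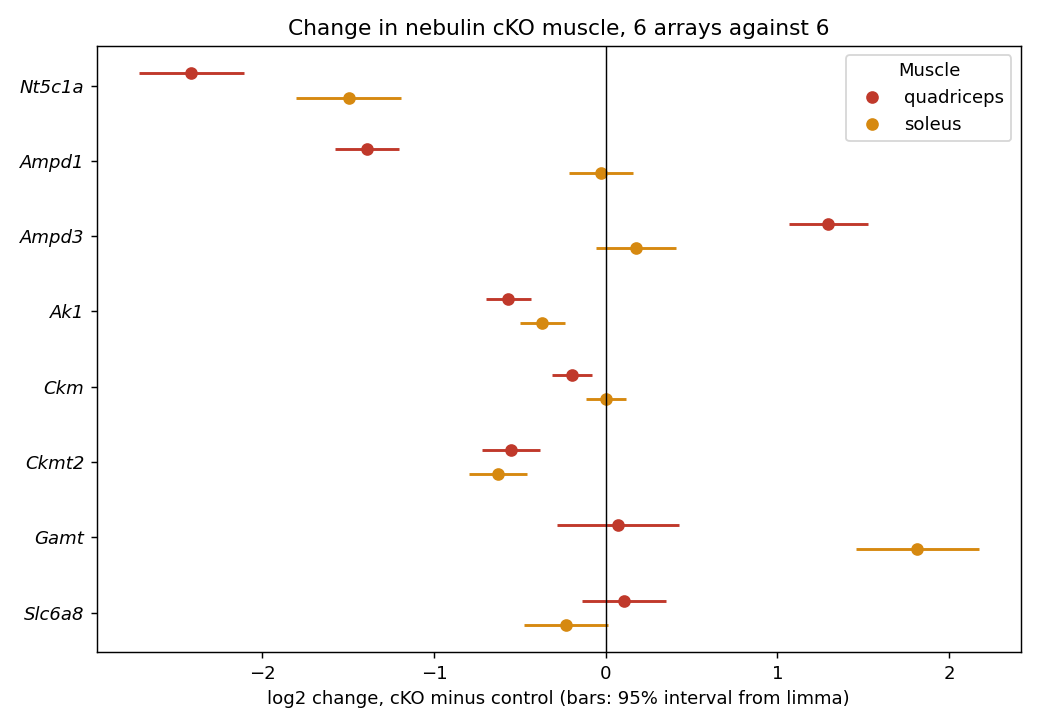
Log2 change of each gene, cKO minus control (x axis), in quadriceps and in soleus; points are fitted changes and bars 95% intervals from limma (6 arrays against 6). Ampd1 and Ampd3 were called in quadriceps only, Gamt in soleus only, and Ak1 and Ckmt2 in both.

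The next comparison asked how far the muscles differed within each genotype. In cKO, soleus against quadriceps, 1 of the 7 genes other than Nt5c1a was called higher and 1 lower, where 11.9% of all genes tested were called higher and 16.9% lower (28.8% in all). In controls, 3 of the 7 were called higher and 4 lower, where 15.2% of all genes were higher and 18.3% lower (33.5% in all). In cKO, 1 gene lay without overlap higher in soleus and 1 lower, against 5.33% and 10.6% of all genes (15.9% in all). In controls all 7 were without overlap, 3 higher and 4 lower, against 3.94% and 7.73% of all genes (11.7% in all). Whether the difference between muscles itself changed with genotype is the same test as that of the difference between the cKO changes, given above for these 7 genes. In that test 2 of the 7 (Ampd1 and Gamt) were called higher and 1 (Ampd3) lower, where 4.89% of all genes were higher and 7.39% lower (12.3% in all). With same-numbered muscles of 1 genotype as a random replicate block, 2952 genes were called in place of 1966, and the calls of the 7 stayed as they were.

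In controls, soleus had less Ampd1 than quadriceps (-1.36 on the log2 scale, 2.57-fold lower, limma adjusted p = 1.15e-11), less Gamt (-1.73, 3.33-fold lower, adjusted p = 1.51e-08), less Ak1 (-0.53, adjusted p = 3.44e-07) and less Ckm (-0.30, adjusted p = 0.00017). It had more Ampd3 (1.45, 2.73-fold, adjusted p = 1.53e-10), more Slc6a8 (0.59, 1.51-fold, adjusted p = 0.000355) and more Ckmt2 (0.27, adjusted p = 0.0118). The Ckmt2 call was lost with arrays centred on their medians (0.17, adjusted p = 0.169). These values share the quadriceps control arrays with the cKO changes in quadriceps, and the soleus control arrays with those in soleus. Set side by side, Ampd1, Ampd3, Ak1 and Ckm differed in cKO quadriceps from control quadriceps by -1.39, 1.30, -0.57 and -0.20, and in control soleus from control quadriceps by -1.36, 1.45, -0.53 and -0.30. For Nt5c1a, Ckmt2, Gamt and Slc6a8 the values were -2.41, -0.55, 0.07 and 0.11 in the first comparison and -1.02, 0.27, -1.73 and 0.59 in the second. The pairs of values were not tested against each other.

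In cKO the difference between muscles was 0.00 for Ampd1 (95% interval -0.19 to 0.19) and 0.01 for Gamt (95% interval -0.35 to 0.37). Ampd3 remained higher in soleus (0.33, 1.25-fold, limma adjusted p = 0.0305) and Ak1 lower (-0.33, 1.26-fold, adjusted p = 0.000398), each without overlap. The Ampd3 call was lost with arrays centred on their medians (adjusted p = 0.0798) and without quadriceps cKO 4, 5 or 6 or soleus cKO 4 or 6 (adjusted p up to 0.0687). Ckmt2 was higher in cKO soleus by 0.20, which missed the threshold in the unblocked fit (adjusted p = 0.0758). It passed with same-numbered muscles of 1 genotype as a random replicate block (adjusted p = 0.0392) or a fixed one (0.0462). Slc6a8 was at 0.25 (adjusted p = 0.107) and Ckm at -0.10 (adjusted p = 0.183). The Slc6a8 difference passed without quadriceps control 4 (adjusted p = 0.0238), when only the cKO arrays were fitted (0.0171), with arrays centred on the 75th percentile (0.0229) and with array weights (0.0178). The Ckm difference passed with quantile normalization (-0.15, adjusted p = 0.0426). The Ckmt2 difference also passed with the 75th percentile (adjusted p = 0.00647), with array weights (0.0218), without quadriceps control 4 (0.0482) and without quadriceps cKO 4 (0.0217).

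**Figure D4:**
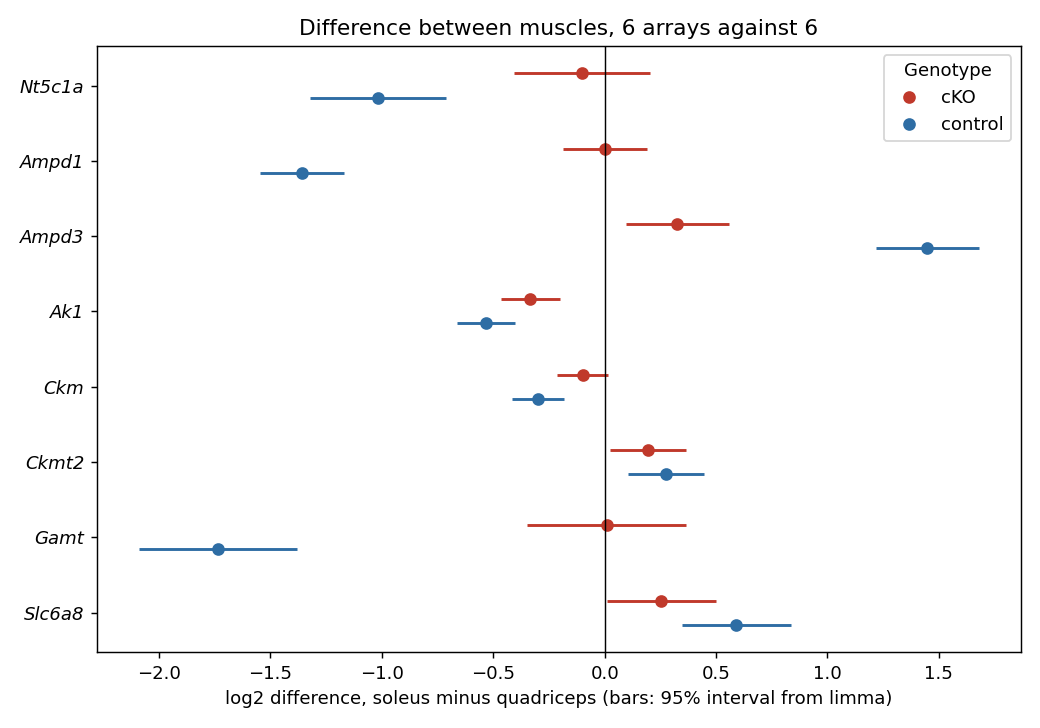
Log2 difference of each gene, soleus minus quadriceps (x axis), within cKO and within control mice; points are fitted differences and bars 95% intervals from limma (6 arrays against 6). Ampd1 and Gamt sat at 0.00 and 0.01 in cKO, against -1.36 and -1.73 in controls.

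Other genes of these pathways were read from 8 lists, 55 genes in all, of which 50 could be tested. In cKO quadriceps 14 were called higher and 15 lower (median -0.07), and in cKO soleus 6 were called higher and 16 lower (median -0.10). Of all genes tested, 22.3% were called higher and 17.7% lower in quadriceps, and 13.2% and 9.94% in soleus. For creatine, 2 of 3 other genes rose in quadriceps and none was called in soleus. Gatm, which makes the precursor that Gamt methylates, read 7.89 to 8.49 in cKO quadriceps against 6.74 to 7.52 in control quadriceps and rose by 1.13 on the log2 scale (limma adjusted p = 6.39e-08). In soleus the Gatm values were 6.26 to 6.86 in cKO and 6.08 to 6.61 in controls, and the changes differed between muscles by -0.83 (adjusted p = 0.0027). The brain creatine kinase Ckb rose by 0.25 in quadriceps (adjusted p = 0.0434). In the synthesis pathway of creatine, the first enzyme was thus called in quadriceps and the last one, Gamt, in soleus.

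Around AMP, the purine nucleotide cycle returns IMP to AMP through adenylosuccinate synthase and lyase. Adssl1, the muscle form of the synthase, read 9.77 to 10.10 in cKO quadriceps against 10.90 to 11.29 in control quadriceps, and 9.55 to 9.81 in cKO soleus against 10.15 to 10.55 in control soleus. It fell by 1.12 on the log2 scale in quadriceps (limma adjusted p = 2.3e-11) and by 0.69 in soleus (adjusted p = 2.4e-07), and these changes differed by 0.43 (adjusted p = 0.0128). The lyase Adsl fell in both (-0.54 and -0.25), and Ampd2, the liver form of AMP deaminase, rose in quadriceps (0.26). Of 5 tested nucleotide kinases, Ak3 of the mitochondrial matrix fell in both muscles (-0.53 in quadriceps, -0.62 in soleus) and no other was called.

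Among 6 tested 5'-nucleotidases, 3 rose and 2 fell in quadriceps, and 3 rose and 1 fell in soleus. Nt5c2, which prefers IMP and GMP, moved opposite to Nt5c1a: it read 8.31 to 8.71 in cKO quadriceps against 6.18 to 7.14 in control quadriceps, and 9.17 to 9.43 in cKO soleus against 7.66 to 8.86 in control soleus. It rose by 1.93 on the log2 scale in quadriceps (limma adjusted p = 4.16e-10) and by 1.31 in soleus (adjusted p = 6.87e-07). Nt5c (0.45 and 0.63) and Nt5c3b (0.28 and 0.43) rose in quadriceps and soleus, and Nt5c3 fell in both (-0.51 and -0.61). The mitochondrial Nt5m fell in quadriceps (-0.24).

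Of 10 purine salvage and breakdown genes, 4 rose and 2 fell in quadriceps, and 1 rose and 2 fell in soleus. Adenosine kinase Adk, which returns adenosine to AMP, fell in both muscles: it read 7.51 to 7.88 in cKO quadriceps against 8.22 to 8.89 in control quadriceps, and 7.39 to 7.75 in cKO soleus against 8.59 to 9.24 in control soleus. The falls were 0.93 on the log2 scale in quadriceps (limma adjusted p = 2.93e-07) and 1.48 in soleus (adjusted p = 3.11e-10). Hprt, which salvages hypoxanthine and guanine, rose in both (1.11 and 0.84), while the phosphorylase Pnp (0.63) and the transporter Slc29a3 (0.43) rose in quadriceps. The transporter Slc29a2 fell in both (-0.30 and -0.35). In the 7 genes of purine synthesis, 2 rose and 1 fell in quadriceps, and 1 rose and 4 fell in soleus. Ppat, the committed step, fell in both (-0.83 and -0.43), Atic rose in both (0.22 and 0.29), Prps2 rose in quadriceps (0.30), and Paics (-0.45) and Pfas (-0.32) fell in soleus.

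AMP-activated protein kinase reads the AMP level. Of its 9 listed subunits and upstream kinases, 1 rose and 3 fell in quadriceps, and 1 rose and 2 fell in soleus. Prkab2, a regulatory subunit, moved in opposite directions. It read 8.36 to 8.90 in cKO quadriceps against 9.20 to 9.91 in control quadriceps, and 8.27 to 8.66 in cKO soleus against 7.58 to 7.90 in control soleus. It fell by 0.93 on the log2 scale in quadriceps (limma adjusted p = 1.78e-07) and rose by 0.80 in soleus (adjusted p = 3.9e-06), a difference of 1.73 (adjusted p = 5.21e-08). The catalytic subunit Prkaa2 fell in both (-0.67 and -0.65), Prkaa1 rose in quadriceps (0.53), Prkag3 fell there (-0.91) and Prkag1 fell in soleus (-0.20). Of 6 genes that move ATP, ADP and phosphate across the mitochondrial membranes, 1 rose and 4 fell in quadriceps and 4 fell in soleus. The channels Vdac1 (-0.50 and -0.42) and Vdac3 (-0.57 and -0.44) and the phosphate carrier Slc25a3 (-0.48 and -0.42) fell in both. Of the ADP/ATP carriers, Slc25a4 fell in both (-0.23 and -0.26) and Slc25a5 rose in quadriceps (0.70). Group means were 12.24 to 12.57 for Slc25a4 and 8.93 to 9.63 for Slc25a5.

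**Figure D5:**
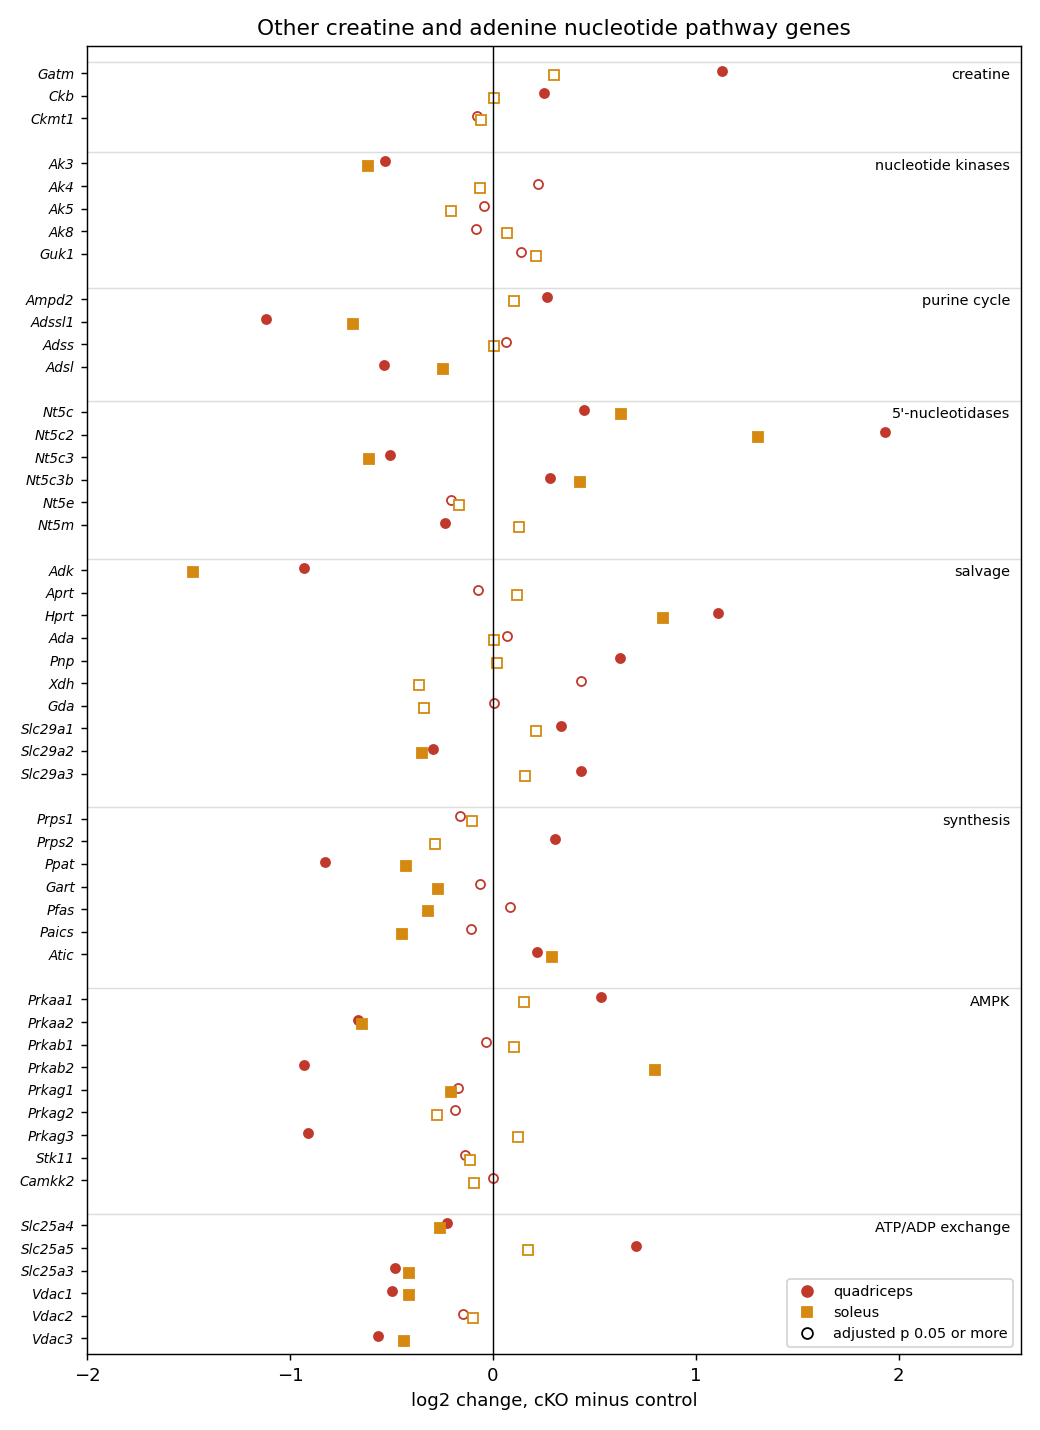
Log2 change, cKO minus control (x axis), of 50 other genes of creatine and adenine nucleotide pathways by list, in quadriceps (circles) and soleus (squares); filled symbols have an adjusted p under 0.05. Nt5c2 was at 1.93 and 1.31, Adk at -0.93 and -1.48, and Prkab2 at -0.93 and 0.80.

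For each of the 8 genes, the 3 genes of most like pattern were those with the highest Pearson r of log2 values over the 24 arrays. The arrays fall into 4 groups that set much of such an r, so the r of deviations from the group means is given beside it, both as descriptions. Nt5c1a was closest to Stat5b (0.98, deviations 0.76), Dennd4b (0.97, deviations 0.61) and St8sia5 (0.97, deviations 0.60). Ampd1 was closest to Ank1 (0.97, deviations 0.70), Jph2 (0.96, deviations 0.65) and Cyp4f39 (0.96, deviations 0.35). Stat5b is a transcription factor of cytokine signalling, and Jph2 a protein of the junction between surface and reticulum membranes.

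Ampd3 lay closest to Arhgap24 (r = 0.97, deviations 0.81) and then to the slow myosin Myh7 (0.96, deviations 0.61) and Tnni1 (0.96, deviations 0.53). Ak1 lay closest to Mpst, Tmod4 and Coq2 (0.97 to 0.98, deviations 0.67 to 0.70), and Ckm to Lrig1 (0.96), Pfkfb4 (0.95) and the calcium buffer Casq1 (0.95, deviations 0.74 to 0.78 for the 3). Ckmt2 lay closest to Crat (0.96, deviations 0.84), Acadvl (0.94, deviations 0.68) and Plaat3 (0.92, deviations 0.62), of which the first pair handle acyl groups in mitochondria. Gamt lay closest to the myosin-binding protein Mybph (0.95, deviations 0.59), which averaged 10.55 in cKO quadriceps, 10.16 in control quadriceps, 10.88 in cKO soleus and 6.49 in control soleus. Cacnb1 (0.94) and Psma7 (0.93) came next. The highest r for Slc6a8 was with Pwwp2b (0.89, deviations 0.84).

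Among the 8 genes themselves, the highest r of deviations from the group means over 24 arrays was 0.73, between Ampd1 and Ak1, followed by 0.69 between Ak1 and Ckm. Quadriceps cKO 2, flagged below for Ampd1, was the lowest array of its group for Ampd1 (9.69), Ak1 (10.55) and Ckm (12.65). It was also the lowest for Nt5c1a (4.30), Ckmt2 (10.83) and Gamt (7.56), and the highest for Ampd3 (8.26). Its part in these r values was not tested. Ampd1 and Ampd3, which differed in opposite directions between the groups (r = -0.94 over all arrays), had a deviation r of -0.26. All of these pairs come from the same arrays and share their scaling.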

How the data were processed

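RNA of 24 mouse muscle samples was measured, 6 each from 4 groups read from the sample titles. The authors deposited intensities on a linear scale (1.76 to 10075), made with Affymetrix Expression Console and RMA on build mm10, per the submitters' processing notes (versions and filters: not given in the sources used here). Values were turned to log2. Of 35557 probe sets, 21789 had 1 symbol, 1621 several and 12147 none listed here; 21698 symbols matched a RefSeq table of GRCm38.p6 by Entrez number. The probe set of highest mean stood for each of 19938 genes, and the 15999 genes above the array's 30th percentile on at least 6 arrays were tested.

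One limma 3.58.1 model (R 4.3.3, lmFit, eBayes) of 4 group means was fitted to 24 arrays (20 residual and 6.52 prior degrees of freedom). P-values are two-sided, adjusted by Benjamini-Hochberg over 15999 genes. The fit was also run on simulated data with independent arrays, which does not check the effect of muscles that share a mouse. The number of arrays limits precision: the median SE over genes was 0.10 for the change in 1 muscle and 0.14 for the interaction. Genes and lists were chosen with earlier results of these data known. Named are the 8 genes, up to 3 called genes each way per list and cKO comparison, and the 3 nearest genes. Slc25a4 was added to these.

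The labels number the samples 1 to 6 in every group. Deviations of same-numbered quadriceps and soleus of 1 genotype correlated between 0.22 and 0.45 in cKO and between 0.16 and 0.31 in controls. All 6 pairs of each lay above 0.1. Between genotypes, where the numbers pair no mice, 4 of 6 same-numbered pairs also lay above 0.1 for control soleus with cKO soleus (0.04 to 0.32). The count was 4 for control quadriceps with cKO soleus, 3 between the quadriceps groups and 1 for cKO quadriceps with control soleus. What else the numbers share was not tested. Each pair of 1 genotype was taken as 1 mouse in the random block and, outside the cKO change of a single muscle, in the fixed block. Replicate 4 of cKO has different ages in the labels. No batch is named in the sources used here.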

Additional observations from a re-analysis of the deposited data

Results flagged for a closer look

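In 32 sets of 6 arrays (8 genes in 4 groups), 3 held an array whose gap to its nearest neighbour was large against the range of its group; chance marks about 1 in 20. Ampd1 read 9.69 in quadriceps cKO 2, with the nearest array at 10.19. Slc6a8 read 9.26 in quadriceps cKO 5 (nearest 9.54) and 8.77 in quadriceps control 4 (nearest 9.46). Quadriceps control 4 was also the array farthest from its group over all genes, with a root mean square deviation of 0.32.

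Of the 7 genes other than Nt5c1a, 3 had a cKO change that differed between soleus and quadriceps in the interaction test. The difference, soleus minus quadriceps, was 1.74 for Gamt, 1.36 for Ampd1 and -1.12 for Ampd3 on the log2 scale. For Nt5c1a it was 0.92, a description with no test, since the gene was chosen with its quadriceps change known.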

How the results depend on the processing

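Of 40 results (8 genes in 5 comparisons) 24 had an adjusted p under the threshold, and 21 of these kept direction and call under all 36 alternatives, 24 of which left out 1 array each. Both counts include Nt5c1a in every comparison but that between cKO muscles. Its values are descriptions with no test, so both counts are larger than those of tested results. None of the 24 turned its direction; the exceptions, Ckm in quadriceps, Ckmt2 between control muscles and Ampd3 between cKO muscles, are given above. The random and the fixed replicate block changed no other call than the one given for Ckmt2 between cKO muscles. For the cKO change of a single muscle, the fixed block was the replicate number alone. It joined control and cKO arrays of the same number, so it was not a block of mice.

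Of 16 results not called, 6 changed sign near 0. The quadriceps Gamt change was -0.0114 with arrays centred on the 75th percentile and -0.0296 to 0.169 without single arrays; Slc6a8 there was -0.0281 to 0.168 without single arrays. In soleus, Ampd1 was 0.0081 with median centring, 0.0043 with array weights and -0.0582 to 0.0205 without single arrays, and Ckm was -0.0324 with the 75th percentile, -0.0317 with quantile normalization and -0.0233 to 0.0173 without single arrays. Between cKO muscles, Ampd1 was -0.0605 with median centring and -0.0947 to 0.0434 without single arrays, and Gamt was -0.0542 with median centring, -0.0161 with age as a covariate and -0.0579 to 0.0862 without single arrays. The difference of changes was called for Ckm with the 75th percentile (0.25, adjusted p = 0.0466) and with array weights (0.24, adjusted p = 0.019), and for Ak1 with array weights (0.23, adjusted p = 0.0473).

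Over all genes, the difference of changes gave 1966 calls, 3570 with array weights and 2952 with the random replicate block; the cause was not tested. Without single arrays the calls were 5692 to 7240 in quadriceps, 3235 to 4277 in soleus, 1576 to 2856 for the difference, 4745 to 5759 between control muscles and 3569 to 5323 between cKO muscles. The share of calls that were higher rested on scaling: 55.7% in quadriceps, but 37.5% with the 75th percentile. In soleus it was 57.0%, against 66.9% with median centring and 47.3% with the 75th percentile. For the difference it was 39.8%, but 54.4% with median centring and 51.3% with the 75th percentile. Between control muscles it was 45.4%, but 22.3% and 56.2%, and between cKO muscles 41.3%, but 24% and 68.6%, in the same order. Median centring moved the median of all genes between control muscles to -0.07, against 0.03 as deposited.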

Other observations

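Within the AMP-activated protein kinase list, chosen here after the values were seen, control soleus had less Prkag3 than control quadriceps (-2.77 on the log2 scale, limma adjusted p = 1.9e-12) and less Prkab2 (-1.83, adjusted p = 1.9e-12). In cKO the soleus minus quadriceps difference was -1.73 for Prkag3 (adjusted p = 1.67e-08) and -0.10 for Prkab2 (adjusted p = 0.52). Ak4, a mitochondrial kinase, was lower in soleus than in quadriceps (-1.288 in cKO and -1.002 in controls).

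Soleus control 1 had the highest slow fibre mean of its group (11.97, the other 5 being between 11.31 and 11.49) and the lowest fast fibre mean (10.58). It also had the lowest Nt5c1a (5.44), the highest Gamt (6.61) and the highest Ampd1 (10.46) of the control soleus arrays. Its Ampd3 (8.16) lay within the range of the other 5. Over all genes it stood farther from its group than any other soleus array (root mean square deviation 0.25).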
